A study of Mus musculus with 8 samples.

Results

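The 35 genes described here encode the machinery of autophagy, and all 35 were found by symbol among the 41730 entries of the table. They comprise 5 genes of the initiation complex, 6 of the complex that marks the new membrane with a phospholipid, 5 that supply the membrane, 8 of the conjugation systems, 5 of the LC3 family, 5 cargo receptors and the transcription factor Tfeb. RNA came from mouse CD8+ T cells of the OT-I line, which carry a transgenic receptor for the ovalbumin peptide SIINFEKL. These were co-cultured with peptide-loaded dendritic cells grown from bone marrow and afterwards sorted by flow cytometry. The control group (4 libraries, replicates 1 to 4) received the solvent DMSO, and the RGX-104 group (4 libraries, replicates 5 to 8) received 2 µM RGX-104, which activates the liver X receptors (LXR), sterol-sensing nuclear receptors. All libraries share the OT-I genotype, while the sources used here give no age, duration of culture or number of animals. The comparison asks which T cell transcripts differ when the agonist is present in the co-culture. The agonist was present in a culture of both cell types, so its action on T cells and its action on dendritic cells cannot be told apart. Whether each library stands for its own culture or animal is not stated, so p-values reflect only how these samples vary, and that variation may be technical.

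Autophagy is the process by which a cell wraps part of its cytoplasm in a double membrane, the autophagosome, and delivers it to the lysosome for breakdown. Nutrient shortage releases the initiating kinases Ulk1 and Ulk2 from inhibition by mTORC1, and ubiquitin-like proteins of the LC3 family are then joined to the growing membrane, where cargo receptors bind them. In CD8 T cells the pathway is known for its part in survival after activation and in the formation of memory cells. Most of its regulation acts on proteins, so transcript levels do not measure autophagic activity.

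Among the autophagy genes, Rb1cc1, Atg12 and Sqstm1 fell in the RGX-104 libraries and none rose. Rb1cc1, the scaffold of the initiation complex, was at 0.730 of its control level, Atg12, the ubiquitin-like tag of the conjugation system, at 0.719, and the cargo receptor Sqstm1 (p62) at 0.821. The 3 genes belong to 3 different steps. Of the 35 genes, 32 had enough reads to be tested, and the other 29 of these were not called. Counts were tested with edgeR's quasi-likelihood test, and a gene is called here when its Benjamini-Hochberg adjusted p over all 12162 genes tested is under 0.05. Over all genes, 2.66% were called, 1.78% lower and 0.888% higher, against 3 (9.38%) and 0 of the 32 autophagy genes. The genes were chosen with earlier results of these data known, so these shares are a description. In the 8 fits that left out 1 library, Rb1cc1 was called in 8, Atg12 in only 3 and Sqstm1 in only 2. Fewer cells of a type and less RNA per cell cannot be told apart in sorted bulk samples.

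Libraries held between 13144704 and 15966972 counts. The LXR targets Abca1 (8.13 ± 0.569 CPM in control and 85.2 ± 5.42 CPM in RGX-104, mean ± SD, n = 4 per group) and Abcg1 (8.54 to 13.1 CPM and 41.3 to 60.3 CPM) were higher in every RGX-104 library, where CPM are counts scaled to a common library size with TMM factors. Summed markers of CD8 T cells were at 1636 to 1665 CPM in control and 1961 to 2038 CPM in RGX-104, and 4 of the 8 tested were called, all higher. Dendritic cell and macrophage markers other than Ccr7, which T cells also express, took 0.0142 to 0.0154% of counts in control and 0.0143 to 0.0163% in RGX-104 (exact two-sided permutation test, p = 0.771, Benjamini-Hochberg adjusted over 3 library measures also 0.771, n = 4 per group; the smallest p the design allows is 0.0286). The class II genes H2-Eb1, H2-Ab1, H2-Aa and H2-DMb1, which are among the dendritic cell markers used here, are listed at 0 in all libraries. So are many symbols that the table repeats with a number appended. Whether these zeros are true levels is not known, and the shares may be too low. Of 8 tested dendritic cell markers and 10 tested macrophage markers, edgeR, limma-voom and DESeq2 called none, and at an unadjusted p under 0.05 (edgeR) there were 2 and 0. Both dendritic cell markers were lower in RGX-104, and the log2 fold change was below 0 for 5 of the 8 (median -0.31, against 0.06 for the macrophage markers).

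Promoter sequences from RefSeq (GRCm38.p6, from 250 bases before to 50 after the start of a transcript) were matched for 28 of the 35 genes. Rb1cc1, Atg12, Atg16l1, Becn1, Bnip3l, Map1lc3a and Pik3c3 had no entry. Sqstm1 is shown because it fell, and Bnip3, Atg3 and Atg5 because they hold the letters CACGTG, the E-box that Tfeb and its relatives bind, which are in capitals. Sequences run 5′ to 3′ on the strand of the gene and end upstream of the start: Sqstm1 at chr11:50210821-50210970 (minus strand), Bnip3 at chr7:138909582-138909641 (minus strand), Atg3 at chr16:45158708-45158767 (plus strand) and Atg5 at chr10:44268279-44268338 (plus strand). The start is that of the transcript in the promoter table, and for Atg5 the last bases lie inside the gene as RefSeq outlines it (from 44268322). For Atg7, counted below, the window lies far inside the gene as RefSeq outlines it (from 114643127).
Sqstm1: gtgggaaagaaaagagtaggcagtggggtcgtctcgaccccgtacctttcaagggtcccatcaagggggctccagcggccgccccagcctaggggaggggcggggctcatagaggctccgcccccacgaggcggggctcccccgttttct
Bnip3: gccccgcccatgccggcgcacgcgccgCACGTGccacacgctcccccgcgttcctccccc
Atg3: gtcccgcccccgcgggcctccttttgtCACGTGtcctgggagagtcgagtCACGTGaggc
Atg5: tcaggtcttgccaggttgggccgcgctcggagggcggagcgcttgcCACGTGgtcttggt
Searched on both strands, CACGTG stood in the window of 5 of 28 autophagy genes (17.9%: Atg14, Atg3, Atg5, Atg7 and Bnip3) and in 7.15% of all 32851 promoters of that length. None of these 5 genes was called by edgeR. The shorter ACGTG, a form of the core bound by hypoxia-inducible factors, is part of every CACGTG. It stood in 13 of the 28 (46.4%) and in 19.6% of all promoters, and other forms were not searched. TGATGNAAT and TTGCATCA, letters of elements shared by C/EBP and ATF factors such as ATF4, were in none of the 28 and in 0.965% and 0.895% of all promoters. The direct repeat bound by LXR, AGGTCA given again after any 4 bases, was in none of the 28 and in 0.0152% of all promoters. Only these exact letters were searched. At shares this low, none among 28 promoters is the likely outcome for any set of genes, so these absences are no result. A match is a run of letters, and its absence says only that the letters are not in this window. An autophagy gene was counted if any promoter under its symbol matched, while the shares of all promoters count each promoter singly. The shares are therefore not strictly comparable.

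The order of the genes by level ran from Sqstm1 (113 ± 6.50 CPM in control) down to Wipi1, which had 0 to 17 reads per library and was not tested. The libraries were made from transcript ends, so a value stands for reads near the end of a transcript and has no length term. Of the 32 tested genes, 7 had a control mean over 50 CPM, 19 lay between 10 and 50 CPM and 6 lay under 10 CPM. Sqstm1, Becn1 (89.4 ± 4.30 CPM) and Rb1cc1 (76.0 ± 3.23 CPM) had the highest control means, and the control libraries of any one of them did not overlap with those of the next. Atg2b (61.5 ± 7.36 CPM), Atg5 (61.3 ± 3.24 CPM) and Wipi2 (56.7 ± 3.93 CPM) followed and overlapped among themselves. Gabarap, an LC3 family member, and Atg2a, a lipid transfer protein, are listed at 0 in all libraries, and both symbols are repeated in the table with a number appended, also at 0. These zeros are not read as absence of expression.

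**Figure D1:**
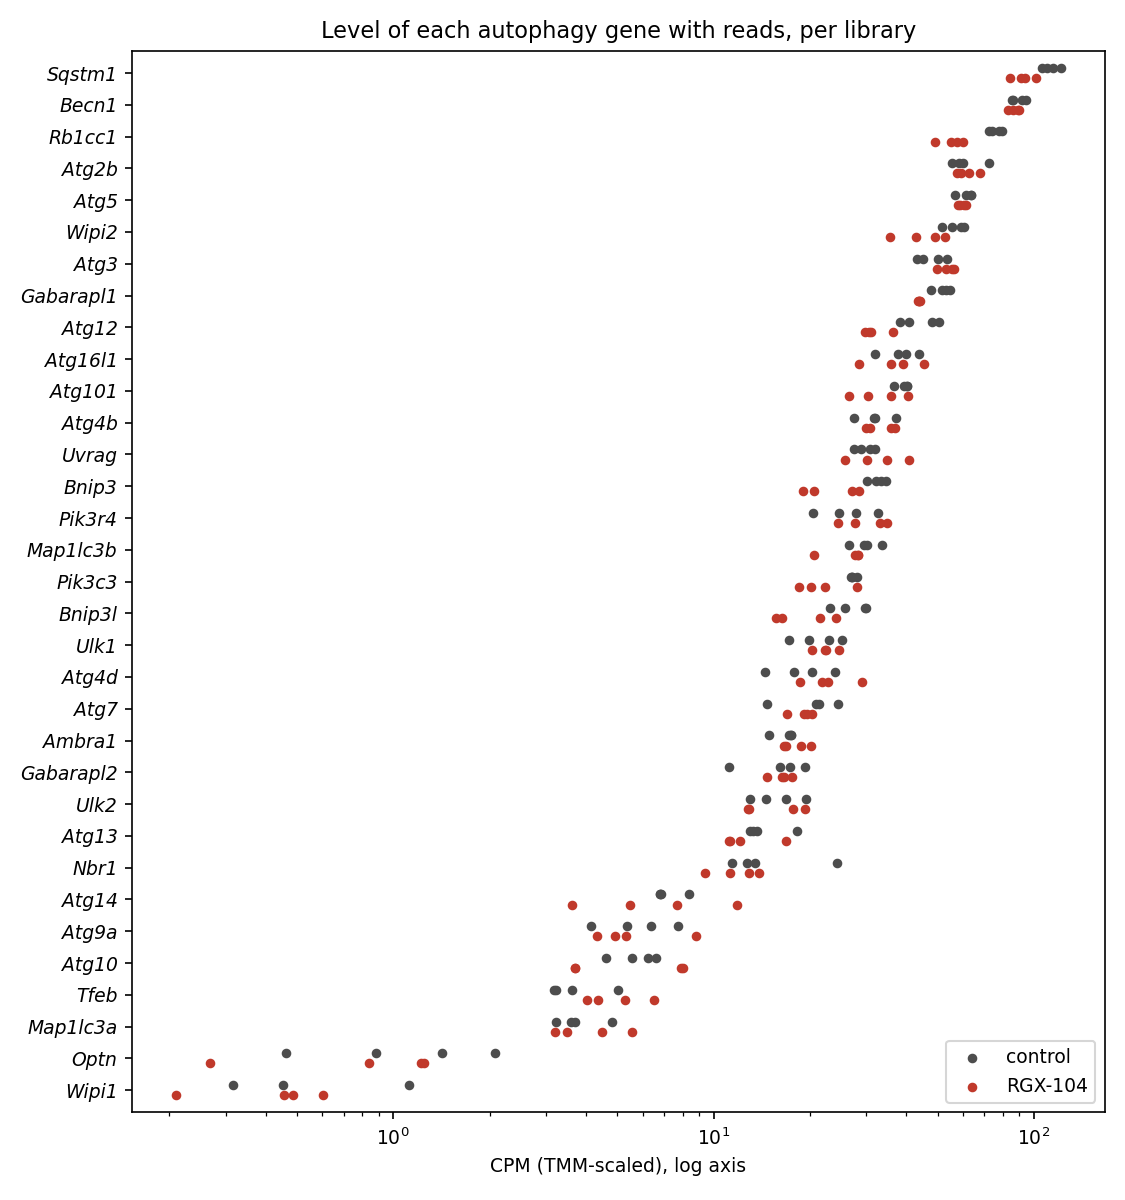
Level of the 33 autophagy genes with reads, in CPM on a log axis, with 1 point per library (grey, 4 control; red, 4 RGX-104) and genes ordered by mean level. Sqstm1 is at the top at 84.3 to 121 CPM, and most genes lie between 10 and 100 CPM; the control library of Wipi1 without reads cannot be drawn on this axis.

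The initiation complex joins the kinases Ulk1 and Ulk2 to Atg13, Atg101 and the scaffold Rb1cc1 (FIP200), and its assembly starts autophagosome formation. Rb1cc1 (chromosome 1, 6214634 to 6276375) was at 79.6, 72.7, 77.7 and 74.0 CPM in control replicates 1 to 4 and at 60.1, 49.1, 57.4 and 55.2 CPM in RGX-104 replicates 5 to 8. Every RGX-104 library lay below every control library. The log2 fold change was -0.45 ± 0.08 (SE; 95% interval -0.63 to -0.28; adjusted p = 0.00202, edgeR), and Rb1cc1 was called in each of the 8 fits that left out 1 library (adjusted p 0.00265 to 0.0154). Exons of the antisense transcript 4732440D04Rik overlap those of Rb1cc1 over 558 bp, and that transcript had 29 to 59 reads per library.

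The partners of Rb1cc1 were not called. Atg101, which stabilises Atg13, was at 40.1, 39.3, 40.2 and 36.5 CPM in control and at 26.4, 40.4, 35.7 and 30.3 CPM in RGX-104. RGX-104 replicate 6 lay above all control libraries and the other 3 lay below them (log2 fold change -0.23, 95% interval -0.48 to 0.02; adjusted p = 0.407). Ulk1 had a log2 fold change of 0.08 (95% interval -0.21 to 0.37), Ulk2 -0.03 (-0.39 to 0.34) and Atg13 -0.17 (-0.54 to 0.19). For these 3 the libraries of the groups overlapped. That the change of Rb1cc1 differs from that of its partners was not tested.

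The nucleation complex is a lipid kinase, with the catalytic subunit Pik3c3 (VPS34), the anchor Pik3r4, Becn1 (Beclin 1) and either Atg14 or Uvrag, and it marks the membrane with phosphatidylinositol 3-phosphate. Neither edgeR nor limma-voom nor DESeq2 called any of its 6 genes, and only Pik3c3 had an unadjusted p under 0.05. Becn1, the most abundant of them, was at 91.9, 85.7, 94.2 and 85.9 CPM in control and at 83.3, 86.0, 89.9 and 89.1 CPM in RGX-104. The groups overlapped, and the interval of its log2 fold change was narrow (-0.04, 95% interval -0.18 to 0.11; adjusted p = 0.870). Pik3c3 was at 28.0, 26.95, 26.9 and 27.1 CPM in control and at 28.1, 20.2, 18.5 and 22.2 CPM in RGX-104. Replicate 5 lay at the control level and the other 3 RGX-104 libraries below it (log2 fold change -0.29 ± 0.13; unadjusted p = 0.0399, adjusted p = 0.332, edgeR). The remaining 4, Pik3r4 (0.19), Uvrag (0.15), Ambra1 (0.10) and Atg14 (-0.01), had log2 fold changes near 0 or above it, and all their groups overlapped.

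The growing membrane is fed by the lipid scramblase Atg9a and the lipid transfer proteins Atg2a and Atg2b, and the Wipi proteins read the phosphatidylinositol 3-phosphate on it. Wipi2, which recruits Atg16l1 to that membrane, was at 59.2, 60.4, 55.4 and 51.7 CPM in control and at 42.9, 35.6, 49.0 and 52.95 CPM in RGX-104. RGX-104 replicate 8 lay within the control range and the other 3 lay below it (log2 fold change -0.33 ± 0.11; unadjusted p = 0.00618, adjusted p = 0.136, edgeR). Wipi2 was not called in any of the alternatives run. Atg2b, the gene of this step with the highest level, was at 60.1, 72.2, 58.3 and 55.5 CPM in control and at 57.5, 62.9, 59.2 and 67.97 CPM in RGX-104, with a log2 fold change of 0.01 (95% interval -0.18 to 0.20; adjusted p = 0.984). The groups overlapped for Atg2b and for Atg9a (-0.01), and none of the 3 tested genes of the step was called by any of the 3 tools. Of these, 1, Wipi2, had an unadjusted p under 0.05. Exons of Atg9a overlap those of Gm29253 on the same strand over 1832 bp. Those of Atg2b overlap exons of Gskip on the opposite strand over 383 bp, and Gskip had 167 to 265 reads per library.

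In the conjugation systems Atg7 activates both Atg12 and the LC3 proteins, Atg10 passes Atg12 on to Atg5, the product binds Atg16l1, and this complex together with Atg3 joins LC3 to lipid, while the Atg4 proteases prepare and release LC3. Atg12 (chromosome 18, 46732417 to 46741724) was at 50.5, 40.9, 48.2 and 38.1 CPM in control and at 36.3, 30.6, 31.0 and 29.8 CPM in RGX-104. Every RGX-104 library lay below every control library, with a gap of under 2 CPM between control replicate 4 and RGX-104 replicate 5. The log2 fold change was -0.48 ± 0.11 (95% interval -0.71 to -0.24; adjusted p = 0.0219, edgeR). Atg12 was called in only 3 of the 8 fits that left out 1 library. The call was lost without control replicate 1 (adjusted p = 0.102), control replicate 3 (0.0993) and RGX-104 replicate 6 (0.0796), 7 (0.0685) or 8 (0.0846), while the log2 fold change stayed between -0.54 and -0.41.

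Its partners were not called. Atg5, the acceptor of Atg12, was at 63.5, 63.6, 61.5 and 56.7 CPM in control and at 61.4, 57.9, 60.4 and 58.7 CPM in RGX-104, with a log2 fold change of -0.04 (95% interval -0.21 to 0.13; adjusted p = 0.881). Atg3, the enzyme that joins LC3 to lipid, was at 43.2 to 53.6 CPM in control and at 49.9 to 56.5 CPM in RGX-104 (log2 fold change 0.16; adjusted p = 0.462). Atg16l1 (-0.05), Atg7 (-0.10), Atg10 (0.01), Atg4b (0.06) and Atg4d (0.27) had overlapping groups. Exons of Atg4d overlap those of Kri1 on the opposite strand over 1405 bp, and Kri1 had 596 to 860 reads per library, so the value of Atg4d is uncertain. As a description with no test, reads of Atg12 per read of Atg5 were 0.795, 0.643, 0.784 and 0.671 in control and 0.590, 0.529, 0.513 and 0.507 in RGX-104.

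**Figure D2:**
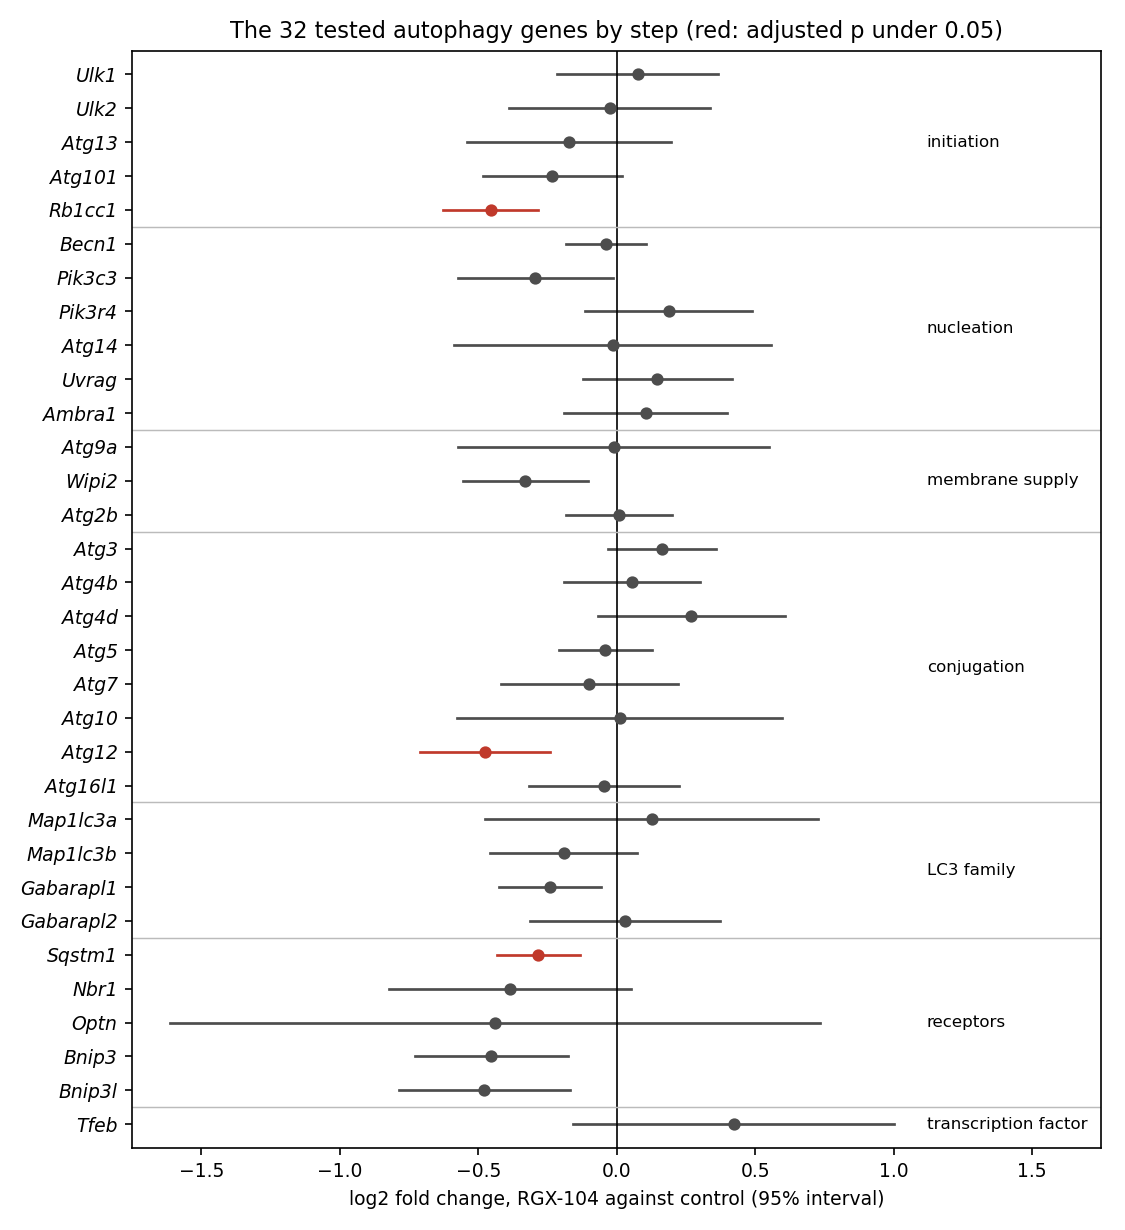
Log2 fold change of RGX-104 against control for the 32 tested autophagy genes, grouped by step, with points for the edgeR estimate and lines for its 95% interval. The 3 called genes, in red, are Rb1cc1 (-0.45), Atg12 (-0.48) and Sqstm1 (-0.28), and all 5 receptors lie left of 0. The intervals of the receptors Nbr1 and Optn cross 0.

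LC3 family proteins coat the autophagosome and are the handles that receptors bind. Of the 4 tested, none was called with any of the 3 tools, and 1, Gabarapl1, had an unadjusted p under 0.05. Gabarapl1 was at 54.5, 51.6, 53.1 and 47.8 CPM in control and at 43.8, 44.1, 43.5 and 43.9 CPM in RGX-104. The groups did not overlap, and the RGX-104 libraries lay within 1 CPM of each other (log2 fold change -0.24 ± 0.09; unadjusted p = 0.0127, adjusted p = 0.1999, edgeR). Map1lc3b, which encodes the LC3B protein used as a marker of autophagosomes, was at 33.5, 29.6, 30.1 and 26.4 CPM in control and at 28.3, 20.7, 27.7 and 28.3 CPM in RGX-104. RGX-104 replicate 6 stood below all other libraries and the groups overlapped (log2 fold change -0.19, 95% interval -0.46 to 0.08; adjusted p = 0.548). Gabarapl2 was at 16.1, 17.3, 11.2 and 19.2 CPM in control and at 14.7, 17.5, 16.6 and 16.3 CPM in RGX-104 (log2 fold change 0.03; adjusted p = 0.9597). Map1lc3a, the least abundant, was at 3.23, 3.70, 3.60 and 4.82 CPM in control and at 4.49, 5.56, 3.48 and 3.20 CPM in RGX-104 (log2 fold change 0.13; adjusted p = 0.8995). The groups of both genes overlapped.

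Cargo receptors hold a substrate and LC3 at once: Sqstm1, Nbr1 and Optn bind ubiquitin-tagged cargo, and Bnip3 and Bnip3l (NIX) sit on mitochondria and mark them for removal. All 5 had a negative log2 fold change, and 1 of the 5 was called, where 1.78% of all genes were called lower. Their median was -0.44, against -0.04 for the 32 autophagy genes and 0.003 for all genes tested. That median is the value of Optn, which had few reads. Without control replicate 2, the log2 fold change was -0.08 for Nbr1 and -0.05 for Optn. The 14 other cargo receptors tested split into 7 negative and 7 positive (median -0.02). Sqstm1 (chromosome 11, 50200152 to 50210820), whose promoter is printed above, was at 106, 115, 121 and 110 CPM in control and at 94.1, 90.95, 84.3 and 101 CPM in RGX-104. Every RGX-104 library lay below every control library, with RGX-104 replicate 8 nearest to the control range. The log2 fold change was -0.28 ± 0.07 (95% interval -0.43 to -0.13; adjusted p = 0.0329, edgeR). The call held in only 2 of the 8 fits that left out 1 library. It was lost without control replicate 2 (adjusted p = 0.0851), 3 (0.153) or 4 (0.0544) and without RGX-104 replicate 5 (0.0588), 6 (0.106) or 7 (0.128). Exons of Mrnip overlap those of Sqstm1 on the opposite strand over 580 bp, and Mrnip had 39 to 92 reads per library.

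The mitochondrial receptors had larger log2 fold changes than Sqstm1 but a wider spread. Bnip3 was at 32.2, 33.3, 30.2 and 34.6 CPM in control and at 19.0, 26.98, 28.5 and 20.6 CPM in RGX-104. The groups did not overlap, and RGX-104 replicates 5 and 8 lay well below replicates 6 and 7 (log2 fold change -0.45 ± 0.13; unadjusted p = 0.00269, adjusted p = 0.0803, edgeR). DESeq2 called Bnip3 (adjusted p = 0.0482), and edgeR did so without RGX-104 replicate 7 (0.0452). Bnip3l was at 25.7, 29.8, 29.6 and 23.1 CPM in control and at 21.5, 15.7, 24.04 and 16.4 CPM in RGX-104. RGX-104 replicate 7 lay within the control range and the other 3 below it (log2 fold change -0.48 ± 0.15; unadjusted p = 0.00417, adjusted p = 0.108, edgeR). Both genes are known targets of hypoxia-inducible factors.

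The last 2 receptors were low or variable. Nbr1 was at 11.4, 24.3, 12.7 and 13.5 CPM in control and at 11.3, 12.9, 9.37 and 13.9 CPM in RGX-104. Control replicate 2 stood apart, and the other control libraries lay within the RGX-104 range (log2 fold change -0.39, 95% interval -0.82 to 0.05; adjusted p = 0.436). Optn, the least abundant gene tested, had 7 to 31 reads in control and 4 to 18 in RGX-104 (1.42, 2.08, 0.883 and 0.462 CPM against 0.842, 1.25, 0.268 and 1.22 CPM). Its log2 fold change of -0.44 had a 95% interval from -1.61 to 0.74, so a 1.5-fold change in either direction was not detectable at this depth.

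Tfeb, the transcription factor that drives lysosomal and autophagy genes when it enters the nucleus, was the only gene of its step. It was at 3.62, 3.23, 5.05 and 3.17 CPM in control and at 6.52, 5.28, 4.35 and 4.04 CPM in RGX-104. RGX-104 replicates 5 and 6 lay above all control libraries and the groups overlapped (log2 fold change 0.42, 95% interval -0.16 to 1.00; adjusted p = 0.540, edgeR). It had the largest positive log2 fold change of the 32 genes and was not called in any of the alternatives run.

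**Figure D3:**
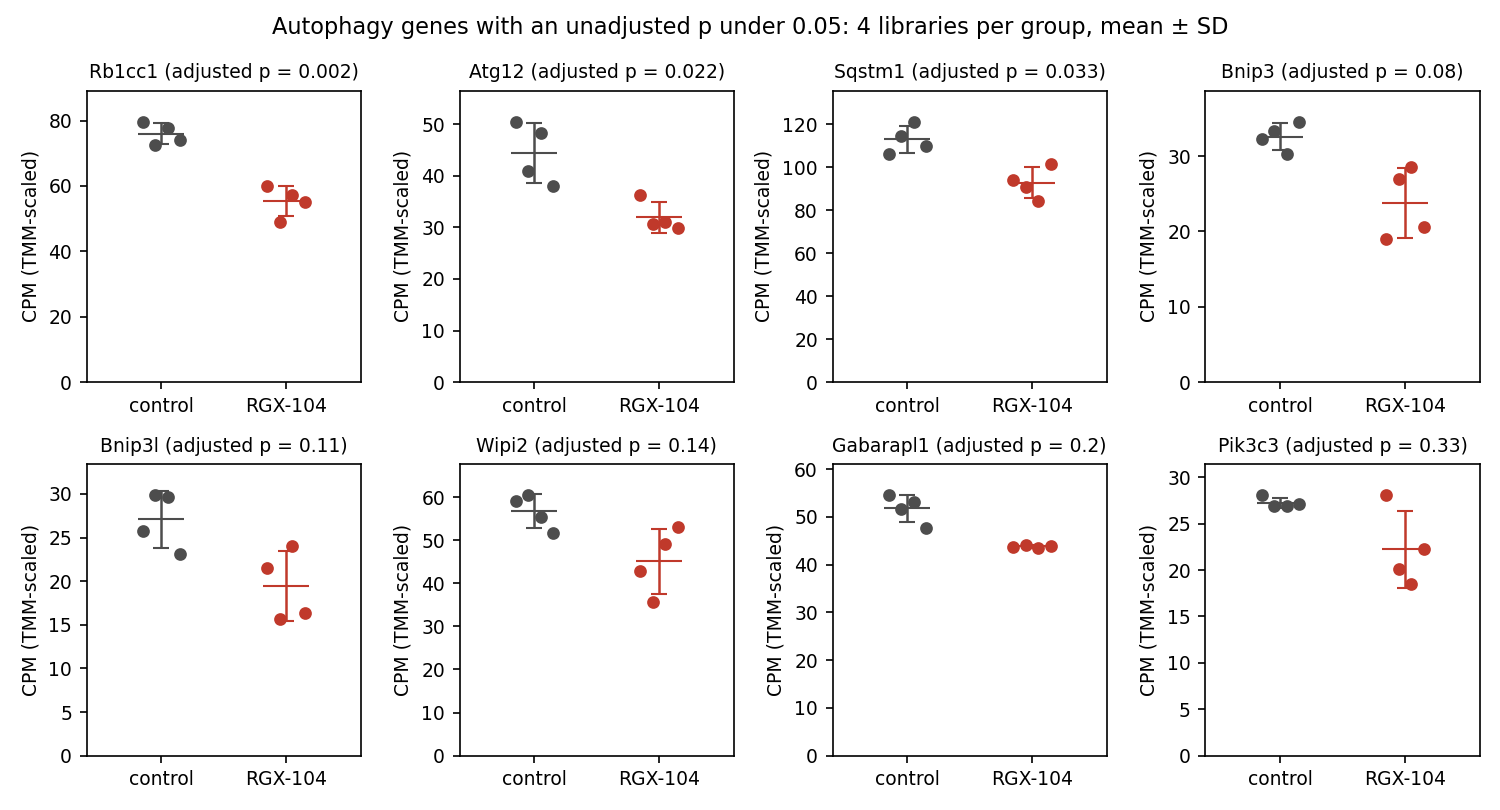
CPM of the 8 autophagy genes with an unadjusted p under 0.05, with 1 point per library, a bar at the group mean and whiskers of 1 SD (n = 4 per group); axes start at 0. Rb1cc1, Atg12, Sqstm1, Bnip3 and Gabarapl1 have no overlap between the groups, while Bnip3l, Wipi2 and Pik3c3 each have at least 1 RGX-104 library at the control level.

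Of the 32 tested genes, 20 had a negative log2 fold change and 12 a positive one, with a median of -0.04 (0.003 over all genes tested, of which 49.4% were negative). At an unadjusted p under 0.05, 8 were lower and 0 higher, where 7.52% of all genes were lower and 6.28% higher. In 5 of the 32 (Rb1cc1, Atg12, Sqstm1, Bnip3 and Gabarapl1) the RGX-104 libraries lay below all control libraries, a pattern that 4.32% of all genes showed, and in 0 they lay above, which 3.88% of all genes showed. For 20 of the 29 genes that were not called, the 95% interval of the fold change lay within 1.5-fold in both directions. The other 9, among them Bnip3, Bnip3l, Nbr1, Optn and Tfeb, could not be bounded that closely. An interval within 1.5-fold does not mean no change. Those of Wipi2, Gabarapl1 and Pik3c3, and of the called gene Sqstm1, lay within that bound and wholly below 0.

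The markers of other cells were also set against the 3 calls. When the mean log2 level of 18 tested dendritic cell and macrophage markers was added to the edgeR model, Rb1cc1 (log2 fold change -0.59; adjusted p = 0.135), Atg12 (-0.46; adjusted p = 0.640) and Sqstm1 (-0.32; adjusted p = 0.558) were not called, and the calls over all genes went from 216 to 20 lower and from 108 to 11 higher. Abca1 and Abcg1 stayed called higher in that fit (log2 fold change 3.57 and 2.14). That covariate, the mean marker level, nearly followed the groups, with a correlation of -0.83 with group over the 8 libraries. In its place, the summed share of all listed markers other than Ccr7, tested or not, was used, and all 3 genes were called. That share had a correlation of 0.06 with group and so could hardly move the group estimates. The kept calls therefore cannot decide the part of other cells. That second covariate was chosen after the data were seen, and the part of other cells in the result was not tested further.

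The stress factor Atf4 and 2 genes induced through it fell in the same libraries. Atf4 was at 666 to 793 CPM in control and 436 to 497 CPM in RGX-104 (log2 fold change -0.62 ± 0.06, adjusted p = 1.50e-07), Ddit3, which encodes CHOP, at 60.6 to 68.2 and 13.6 to 19.0 CPM (-1.97 ± 0.12), and Trib3 at 49.5 to 61.0 and 6.40 to 8.97 CPM (-2.84 ± 0.13). With the mean marker level in the edgeR model, Atf4 (-0.70, adjusted p = 0.00115), Ddit3 (-2.00, 1.28e-05) and Trib3 (-2.61, 7.94e-07) stayed called lower. Published work in fibroblasts short of amino acids has linked 12 of the 35 autophagy genes to ATF4 and CHOP. Of the 11 of these that were tested, 2 fell (18.2%, Atg12 and Sqstm1) and 9 were not called, with a median log2 fold change of -0.05. Of the 21 tested genes outside that set, 1 fell (4.76%, Rb1cc1), with a median of -0.01. Over all genes 1.78% were called lower, and counts of 2 and 1 are too small to set the linked genes apart from the others. Among the linked genes not called were Becn1, Atg5, Atg3, Atg7, Atg16l1, Map1lc3b and Gabarapl2. The part of ATF4 and CHOP in the lower Atg12 and Sqstm1 was not tested.

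The rest of the pathway was described through 95 further genes in 5 lists, of which 86 were tested, 2 fell and none rose. Their share of 2.33% lower is near the 1.78% over all genes, so it is no result about these lists. The 2 genes stood in the list of other autophagy machinery (17 tested, median log2 fold change -0.01). Trp53inp1, a p53 target that binds LC3, was at 13.3, 13.8, 10.7 and 13.5 CPM in control and at 4.00, 5.35, 8.17 and 7.54 CPM in RGX-104, with no overlap (log2 fold change -1.04 ± 0.22, adjusted p = 0.00754). Bcl2, the survival protein that holds Becn1 inactive, was at 188, 177, 176 and 155 CPM in control and at 130, 144, 149 and 127 CPM in RGX-104, again with no overlap (log2 fold change -0.34 ± 0.07, adjusted p = 0.00587). Both were called in each of the 8 fits that left out 1 library, and neither was called with the mean marker level in the model (adjusted p = 0.526 and 0.914). Wdr45, also in that list, was at 6.86 CPM in control and 3.79 CPM in RGX-104, with no overlap. It was not called (log2 fold change -0.85 ± 0.26, unadjusted p = 0.00393, adjusted p = 0.104, edgeR). Of 14 other cargo receptors, none was called by edgeR or limma-voom, DESeq2 called 1, Tax1bp1, and 2 had an unadjusted p under 0.05 (list median -0.02). Tax1bp1 was at 204 CPM in control and 176 CPM in RGX-104, with no overlap (log2 fold change -0.21 ± 0.06, adjusted p = 0.0582, edgeR).

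The later steps of the pathway had positive medians and no called gene. Of 26 tested lysosome genes, which encode membrane proteins, proton pump subunits and hydrolases, 19 had a positive log2 fold change (median 0.11), 0 were called by any of the 3 tools, and 2 had an unadjusted p under 0.05. These were Ctsa, a protective protein of lysosomal enzymes (25.1 and 31.0 CPM, log2 fold change 0.30, adjusted p = 0.239), and Atp6ap1, an accessory protein of the proton pump (59.3 and 68.6 CPM, 0.21, adjusted p = 0.224), and they were named after their values were seen. Of 12 tested genes of autophagosome fusion, 10 had a positive log2 fold change (median 0.08), 0 were called by any of the 3 tools and 1 had an unadjusted p under 0.05. At that threshold 7.69% of the lysosome genes and 8.33% of the fusion genes were higher, near the 6.28% of all genes. These counts are no result about the lists. Of 17 tested regulators, among them Mtor, Foxo1, Foxo3 and the AMP kinase subunit Prkaa1, 0 were called by any of the 3 tools and 0 had an unadjusted p under 0.05 (median 0.01). Whether the lists differ from each other was not tested.

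**Figure D4:**
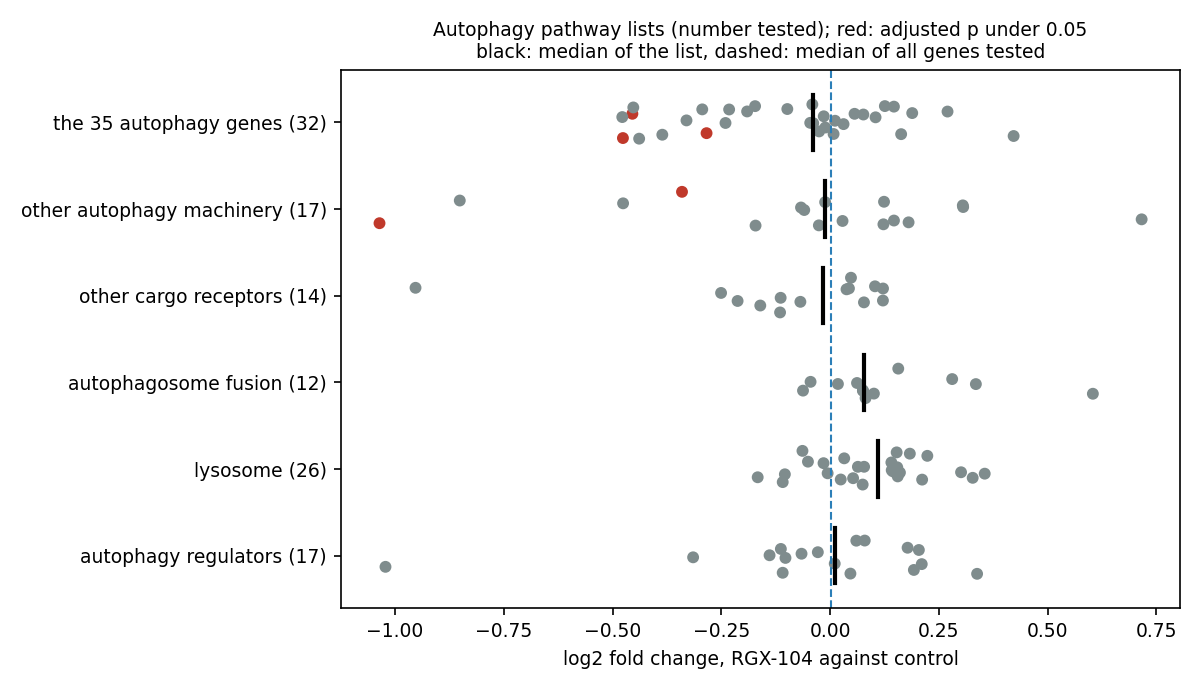
Log2 fold change of each tested gene in the 35 autophagy genes and the 5 further lists, with the number tested in brackets, the median of each list as a black bar and the median of all genes tested (0.003) as a dashed line. The 5 genes in red, all left of 0, are called, and the medians run from -0.04 for the 35 autophagy genes to 0.11 for the lysosome list.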

How the data were processed

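The deposited values are raw counts, whole numbers of reads for each gene. A Lexogen 3′ kit, which reads transcript ends, was used on total RNA, per the labels' protocols. The submitters' processing notes name STAR 2.7.8a, R 4.1.0, DESeq2 1.4 and GRCm38. Which tool counted the reads, whether it used strand, the annotation and any molecular identifiers were not given in the sources used. Without identifiers, PCR copies are not independent molecules, so count precision covers counting error only.

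Each column was assigned through the number and group word in a sample title, and 0 columns belonged to no sample. The count test was edgeR 4.0.16 under R 4.3.3 (TMM, filterByExpr by group, glmQLFit, glmQLFTest, two-sided, group as the only term, all 8 libraries), adjusted over 12162 genes at 0.05. The standard error is the log2 fold change divided by the square root of F, and 95% intervals use the degrees of freedom of that test. Alternatives used RLE or upper quartile factors, no filter, DESeq2 1.42.0, limma-voom 3.58.1, marker covariates, summed repeated symbols and each library left out. Within a group, the chi-square of any pair of libraries was at least 6.52 times its expectation under counting noise, so none was counted as a duplicate.

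The genes and lists were chosen with earlier results of these data known. Values in every library are given for called genes, those with an unadjusted p under 0.05, the most abundant gene of each step, LC3 family members and receptors; called genes of the other lists are named. Values of Atg101, Wdr45, Tax1bp1, Ctsa and Atp6ap1 were chosen after they were seen. Coordinates are 1-based, from RefSeq GRCm38.p6, in which all 35 symbols matched. In GENCODE M21, 10 of the 35 genes share 100 bp or more of exon with another gene.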

Additional observations from a re-analysis of the deposited data

Results flagged for a closer look

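In 7 of 64 groups of 4 libraries (32 autophagy genes in each group), 1 library lay far from the other 3 by Dixon's criterion, where chance alone flags about 1 in 20. Atg13 was at 18.2 CPM in control replicate 1 against 12.9 to 13.6 CPM in the others, and at 16.8 CPM in RGX-104 replicate 6 against 11.2 to 12.1 CPM. Nbr1 was at 24.3 CPM in control replicate 2 against 11.4 to 13.5 CPM. Map1lc3b was at 20.7 CPM in RGX-104 replicate 6 against 27.7 to 28.3 CPM. Ambra1 was at 14.9 CPM in control replicate 3 against 17.2 to 17.5 CPM, Atg14 at 8.39 CPM in control replicate 4 against 6.79 to 6.85 CPM, and Pik3c3 at 28.0 CPM in control replicate 1 against 26.9 to 27.1 CPM. None of these genes was called.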

How the results depend on the processing

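No paired analysis was possible because the groups share no replicate numbers. The same 3 autophagy genes were called lower with RLE factors, upper quartile factors, no filter on low counts, limma-voom, summed repeated symbols and the marker share covariate. DESeq2 called these 3 and Bnip3. The marker share covariate was nearly unrelated to group and so could hardly change the calls. With the mean marker level as covariate, 0 autophagy genes and 0 genes of the pathway lists were called lower, and over all genes 11 were higher and 20 lower. DESeq2 called 167 genes higher over the table. Leaving out 1 library gave 1 to 2 autophagy genes lower, with 1 (Rb1cc1) without control replicate 3 or RGX-104 replicate 6, 2 to 3 pathway genes lower, and 57 to 93 higher and 144 to 211 lower genes over the table. No autophagy gene was called higher in any of the 16 alternatives, and of the 29 not called, 28 stayed so in all of them, the exception being Bnip3. Depth limits the genes under 10 CPM, such as Optn, Map1lc3a and Tfeb, whose intervals are wide.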

Other observations

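Added over all 35 genes, reads of the autophagy genes came to 1052 ± 22.8 CPM in control and 958 ± 19.7 CPM in RGX-104 (n = 4 per group), with 1018 to 1068 CPM in the control and 938 to 985 CPM in the RGX-104 libraries. Without Rb1cc1, Atg12 and Sqstm1 the sums were 796 to 832 CPM and 766 to 799 CPM, and the groups overlapped. Both sums are descriptions with no test, since the genes were chosen with results known.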
